A study of Mus musculus with 9 samples.

Results

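The 9 genes described here encode the proteins with which a neutrophil holds on to, rolls along and crosses a vessel wall: the integrin alpha subunits Itgam, Itgal and Itga4, the integrin beta subunits Itgb1, Itgb2 and Itgb2l, the selectin ligand gene Selplg, the hyaluronan receptor gene Cd44 and the junction receptor gene Pecam1. The rule that chose them names them by symbol and uses no measured value, but the choice was made with earlier results of these data known. They were looked up among the 7197 genes listed in a table of normalized counts, and all 9 were found there. No gene for a selectin itself is among them. A normalized count is the number of reads of a gene in a library divided by one size factor for that library, and because the method reads the 3′ end of each transcript it follows the number of transcripts rather than their length.

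Neutrophils (CD45+, CD11b+, Ly6G+) were sorted from the bone marrow of mice aged 2 months, and 5 Rragc+/+ and 4 RragcS74N/+ libraries were compared. RragcS74N/+ mice carry 1 wild-type allele and 1 CRISPR-edited knock-in allele of Rragc, present in every cell of the body, so any difference may arise in the neutrophil or in its surroundings, and these cannot be told apart. RagC, the product of Rragc, belongs to the Rag GTPases that report amino acid supply to the kinase complex mTORC1, and the edited allele encodes an active form. The groups carry no other allele or treatment per the labels, and the sex of these mice is not given in the sources used here.

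Integrins are pairs of an alpha and a beta subunit, and the partner decides what they bind. Itgam (CD11b) and Itgal (CD11a) both pair with Itgb2 (CD18), giving Mac-1, which binds ICAM-1 and complement fragments, and LFA-1, which binds ICAM-1, whereas Itga4 pairs with Itgb1 to give VLA-4, the receptor for VCAM-1 that helps to keep cells in the marrow. A circulating neutrophil is first caught by selectins through sugars on PSGL-1 (Selplg) and CD44, then arrests through activated beta2 integrins, and then crosses the endothelium with the help of PECAM-1.

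Promoter sequences were available for 5 of the 9 genes in the RefSeq table for assembly GRCm38.p6, as 250 bases before and 50 bases after the annotated start. Of these, 4 are shown: Itgam because its product is the protein the sort selected on, Itgb2l and Cd44 because their levels were the pair most alike across all 9 libraries, and Itga4 because its levels ran most against those of Itgb2l. Each is written 5′ to 3′ on the strand of the gene, and the capitals mark GAGGAA, a core bound by the myeloid factor PU.1, or its reverse complement.
Itgam, chr7:128062390-128062689, plus strand: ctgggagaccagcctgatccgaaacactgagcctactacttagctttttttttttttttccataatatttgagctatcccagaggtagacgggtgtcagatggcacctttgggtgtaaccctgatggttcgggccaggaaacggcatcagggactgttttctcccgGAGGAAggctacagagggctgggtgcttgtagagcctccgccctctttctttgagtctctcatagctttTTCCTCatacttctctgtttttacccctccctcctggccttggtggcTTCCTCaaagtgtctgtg
Itgb2l, chr16:96443565-96443864, minus strand: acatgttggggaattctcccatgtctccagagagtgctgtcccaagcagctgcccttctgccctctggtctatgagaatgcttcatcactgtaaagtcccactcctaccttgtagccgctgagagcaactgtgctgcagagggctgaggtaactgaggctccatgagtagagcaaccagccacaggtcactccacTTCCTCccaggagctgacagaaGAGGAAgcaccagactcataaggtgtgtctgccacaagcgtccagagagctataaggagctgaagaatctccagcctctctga
Cd44, chr2:102901616-102901915, minus strand: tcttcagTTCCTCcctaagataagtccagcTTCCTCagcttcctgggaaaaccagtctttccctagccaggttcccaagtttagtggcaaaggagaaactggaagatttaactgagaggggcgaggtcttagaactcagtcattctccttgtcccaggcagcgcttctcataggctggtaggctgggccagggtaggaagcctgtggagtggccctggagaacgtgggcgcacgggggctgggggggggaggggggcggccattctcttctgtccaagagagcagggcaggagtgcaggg
Itga4, chr2:79255176-79255475, plus strand: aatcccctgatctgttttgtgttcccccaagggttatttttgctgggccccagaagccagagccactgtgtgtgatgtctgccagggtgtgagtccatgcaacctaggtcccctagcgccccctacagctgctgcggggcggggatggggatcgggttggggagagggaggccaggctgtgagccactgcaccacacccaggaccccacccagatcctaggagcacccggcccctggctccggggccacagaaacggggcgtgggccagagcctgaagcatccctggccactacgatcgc
GAGGAA was searched on both strands and stood 3 times in the Itgam window, 2 times in that of Itgb2l, 2 times in that of Cd44, 1 time in that of Itgb1 and 0 times in that of Itga4. It was present in 28.3% of all 32851 promoters listed by RefSeq in that assembly, so the match is a frequent one and is given as a description. TTGCNNAA, a core of C/EBP sites, and TATAAA, the TATA box, were found in 0 of the 5 windows, against 10.8% and 13.6% of all promoters. The Itga4 window was 64.3% G and C and the Itgam window 50.3%.

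The libraries held 1214295 (Rragc+/+ replicate 2) to 1973957 (Rragc+/+ replicate 1) reads over the listed genes. The part of this depth in the results was not tested. Of the values, 100% were whole multiples of what 1 read is worth, within 0.01 reads. All 12 neutrophil identity markers, Ly6g among them, were listed, with summed levels of 145335 to 206869 normalized counts in Rragc+/+ and 133194 to 229624 in RragcS74N/+ libraries. Of the endothelial markers 0 of 10 were listed, of the B cell markers 2 of 12 (Ighm and Igkc, 90.0 to 145.5 and 86.2 to 131.7 summed), of the T and NK cell markers 1 of 14 (Cd3d, 14.5 to 28.9 and 14.6 to 18.8) and of the platelet markers 2 of 12 (Itgb3 and Selp, 36.9 to 68.9 and 41.8 to 58.0). Monocyte and macrophage markers (4 of 12 listed) summed to 2356 to 3636 and 2327 to 4085. Most of this was Ly6c2, with means of 2651 in Rragc+/+ and 2708 in RragcS74N/+. Csf1r, Cd68 and Adgre1 averaged 176.8, 105.8 and 43.9 in Rragc+/+, and 101.6, 68.7 and 36.5 in RragcS74N/+. Eosinophil and basophil markers (7 of 14) summed to 136.7 to 467.2 and 133.3 to 642.7. Of these, Prg2 averaged 30.4 in Rragc+/+ and 88.4 in RragcS74N/+. Epx, Ear1, Ear2 and Ear6 were also higher on average in RragcS74N/+, and Siglecf and Ccr3 lower. Erythroid markers (8 of 11) summed to 1092 to 5630 and 381.2 to 2171. Hba-a1, Hba-a2, Hbb-bs and Hbb-bt averaged 533.2, 994.9, 1186 and 403.0 in Rragc+/+. In RragcS74N/+ they averaged 173.8, 267.5, 502.0 and 152.6 (limma, adjusted p = 0.713 for each). Alas2, Slc4a1 and Ermap were also lower on average in RragcS74N/+, and Car2 higher. The part of these markers in the results was not tested. Rragc+/+ replicate 2 stood apart, with a mean Spearman correlation to the other libraries of 0.891 against 0.929 to 0.951 for the rest, and values without it are given where a result moved most with it. The edited gene itself averaged 71.0 ± 10.4 normalized counts over the 5 wild-type libraries and 65.8 ± 9.52 over the 4 mutant ones (SD), a log2 difference of -0.11 (limma, adjusted p = 0.860), and since the edit is in the coding sequence this level does not show which allele was read.

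Whether an active RagC allele goes with another level of the adhesion genes was the question of the comparison. None of the 8 genes that could be tested passed the test for a difference between genotypes: 0 of 8 had an adjusted p under 0.05 by limma, where 0% of the 6673 genes tested did, and 0 of 8 had an unadjusted p under 0.05, where 5.81% of all genes did. By edgeR and by DESeq2 on the recovered reads the counts were likewise 0 of 8, adjusted or not. In 0 of the 9 genes did all libraries of one genotype lie above those of the other, where 1.69% of the genes tested showed this. The log2 difference, RragcS74N/+ minus Rragc+/+, was above 0 for 3 genes and below 0 for 5, with a median of -0.07 and a median size of 0.17, beside 0.02 and 0.21 over all genes tested. The limma p-values set a difference of genotype means against the spread between the libraries at hand, moderated over all genes tested. In a bulk sample fewer cells of a type and less RNA per cell cannot be told apart. The intervals given below state how large a difference these libraries still allow.

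**Figure D1:**
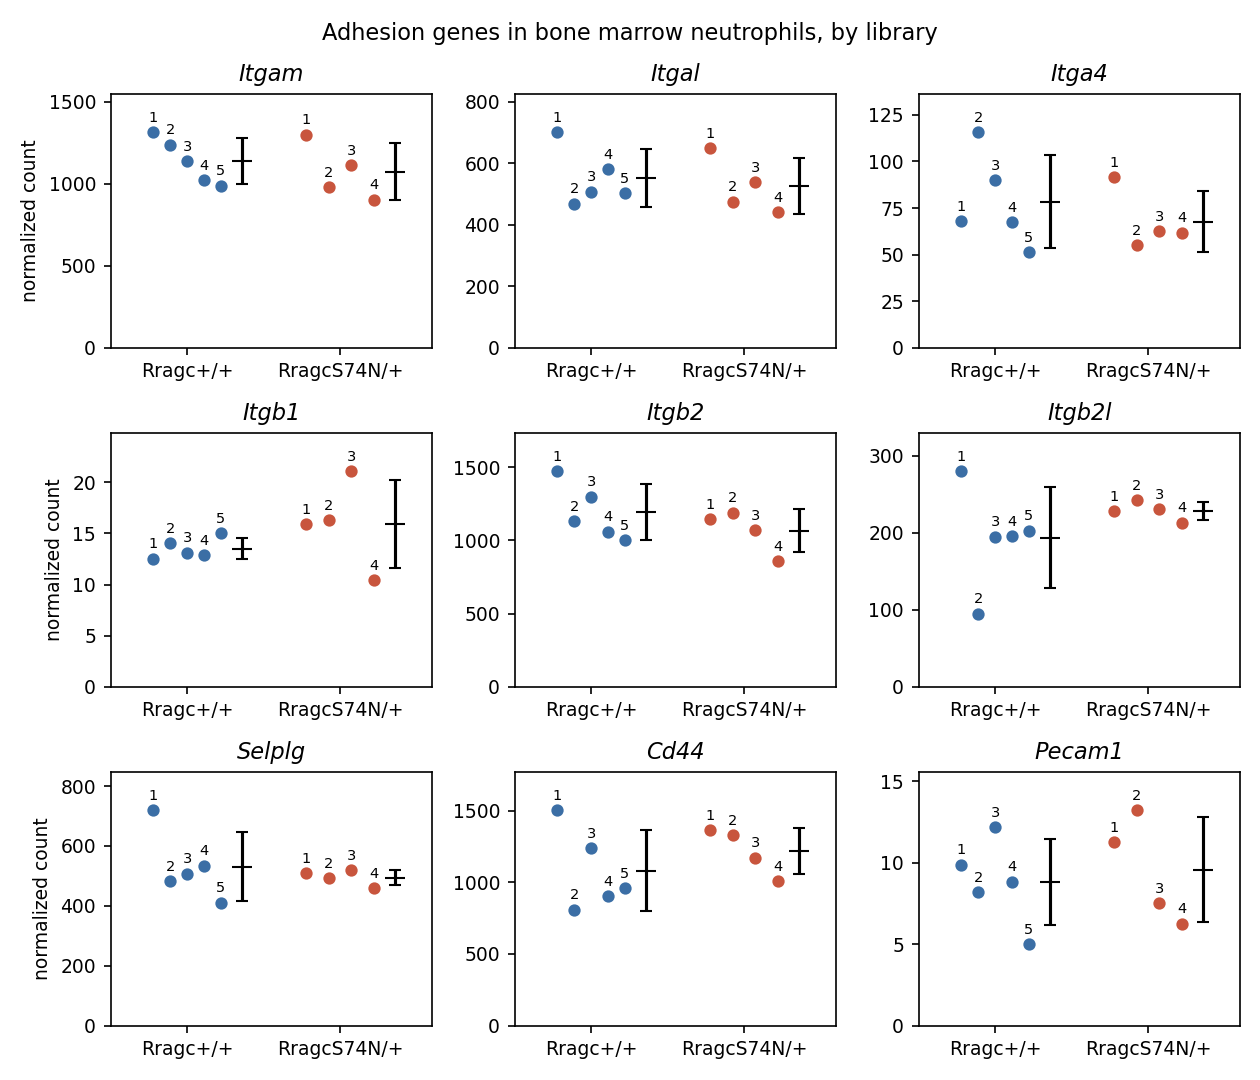
Normalized counts of the 9 adhesion genes (vertical axes, from 0) in each library, with Rragc+/+ in blue (n = 5), RragcS74N/+ in red (n = 4), replicate numbers above the points, and the mean ± SD as a black bar beside each group. The genotypes overlap in all 9 panels, and Itgb2l in Rragc+/+ replicate 2 lies far below every other library.

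The Mac-1 subunit Itgam, whose protein the sort required, was measured in Rragc+/+ replicates 1 to 5 at 1315, 1239, 1140, 1022 and 987.6 normalized counts, and in RragcS74N/+ replicates 1 to 4 at 1299, 979.0, 1114 and 902.9. The ranges overlapped, with the lowest library a mutant and the next lowest mutant library just under the lowest wild-type one. The means were 1141 ± 139 (SD, n = 5) and 1074 ± 174 (SD, n = 4), a log2 difference of -0.09 (95% interval -0.44 to 0.26; limma, adjusted p = 0.864). As a fold this is 0.938, with an interval of 0.735 to 1.20.

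Itgal, the alpha subunit of LFA-1, stood at 701.4, 468.6, 508.0, 582.0 and 502.3 normalized counts in the Rragc+/+ libraries and at 649.1, 475.8, 539.3 and 441.0 in the RragcS74N/+ libraries. One library of each genotype, replicate 1 in both, lay above the other 7 libraries, which overlapped. The log2 difference was -0.07 (95% interval -0.45 to 0.30; limma, adjusted p = 0.902), and its sign turned without Rragc+/+ replicate 1, to 0.02, and without RragcS74N/+ replicate 4, to 0.0094.

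Itgb2, the beta subunit that both of these need to reach the cell surface, was counted at 1472, 1131, 1297, 1059 and 1002 normalized counts in Rragc+/+ and at 1144, 1190, 1068 and 856.9 in RragcS74N/+. Here 2 wild-type libraries lay above every mutant one and 1 mutant library below every wild-type one. The means of 1192 ± 192 (SD, n = 5) and 1065 ± 148 (SD, n = 4) gave a log2 difference of -0.16 (95% interval -0.52 to 0.20; limma, adjusted p = 0.779), or a fold of 0.895 with an interval of 0.696 to 1.15. All 3 genes of the ICAM-1-binding integrins thus had a mean below that of Rragc+/+, each by less than the spread between replicates.

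Itgb2l, known as pactolus, encodes a protein close in sequence to the beta2 subunit and is known from mouse neutrophils. Its levels were 279.9, 94.6, 195.0, 195.3 and 202.5 normalized counts in Rragc+/+ and 228.1, 242.0, 230.5 and 213.2 in RragcS74N/+. Every mutant library lay above 4 of the 5 wild-type ones and below the fifth, Rragc+/+ replicate 1, and the mutant libraries were packed far closer together (CV 5.18%) than the wild-type libraries (CV 34.0%). Counting error alone gives a CV of 6.17% and 6.69% in these groups. The log2 difference of 0.32 was the farthest from 0 among the 8 genes tested (95% interval -0.22 to 0.85; limma, adjusted p = 0.739), as a fold 1.25 with an interval of 0.860 to 1.81. It was 0.08 without Rragc+/+ replicate 2, the lowest library, and 0.47 without replicate 1, the highest, which left the genotypes not overlapping.

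The VLA-4 subunits were scarcer in reads, with 51 to 138 reads a library for Itga4 and 10 to 28 for Itgb1. The levels of Itga4 were 67.8, 115.7, 90.0, 67.5 and 51.1 normalized counts in Rragc+/+ and 91.5, 54.9, 62.5 and 61.7 in RragcS74N/+. The highest and the lowest library were both wild-type, so the mutant range lay inside the wild-type range. The log2 difference was -0.18 (95% interval -0.70 to 0.34; limma, adjusted p = 0.815) and shrank to -0.03 without Rragc+/+ replicate 2, where Itga4 was highest.

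Itgb1 gave 12.5, 14.0, 13.1, 12.9 and 15.0 normalized counts in Rragc+/+ and 15.9, 16.3, 21.1 and 10.5 in RragcS74N/+. Of the mutant libraries 3 lay above all wild-type ones and 1, replicate 4, below them all, so that without it the genotypes did not overlap and the log2 difference went from 0.19 to 0.36. At this depth counting error alone amounts to a CV of 26.1% in Rragc+/+ and 23.0% in RragcS74N/+, beside the observed 7.55% and 27.3%. The 95% interval of -0.36 to 0.74 (limma, adjusted p = 0.823) is the widest among the tested genes.

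**Figure D2:**
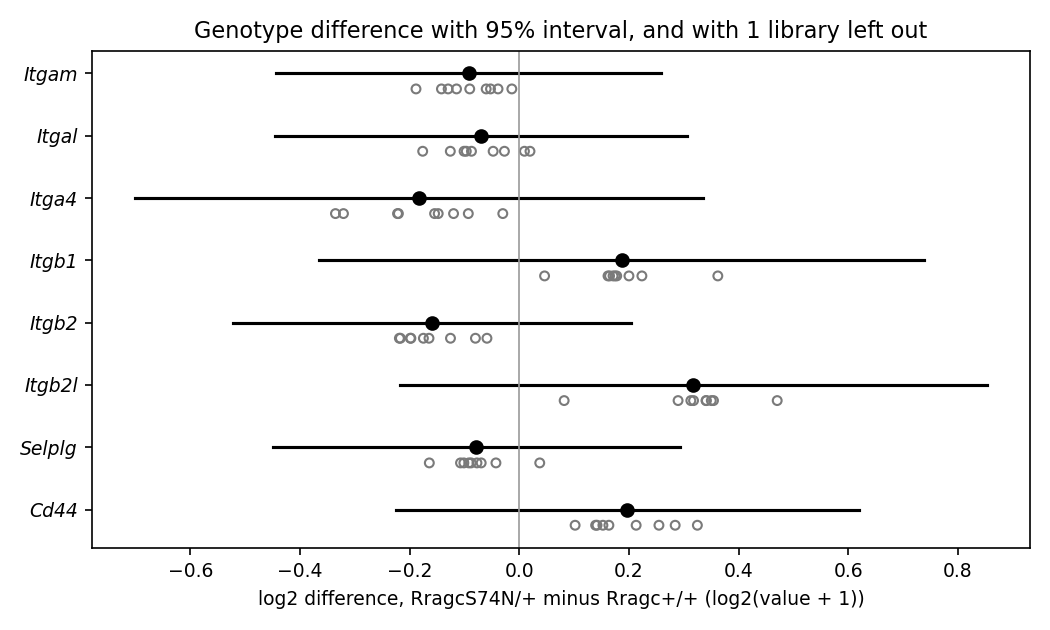
Log2 difference of each tested gene, RragcS74N/+ minus Rragc+/+, on the log2(value + 1) scale (horizontal axis), as a filled point with its 95% interval from limma over 9 libraries, and below it an open circle for each fit with 1 library left out. All 8 intervals include 0, and the open circles of Itgal and Selplg lie on both sides of it.

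The genes of capture and rolling followed no common direction. Selplg, which encodes the selectin ligand PSGL-1, stood at 719.2, 481.4, 508.0, 534.6 and 411.1 normalized counts in Rragc+/+ and at 508.6, 493.1, 518.2 and 458.8 in RragcS74N/+. All 4 mutant libraries lay within the wild-type range, with a CV of 5.27% against 21.6%, where counting error gives 4.18% and 4.09%. The log2 difference was -0.08 (95% interval -0.45 to 0.29; limma, adjusted p = 0.890) and changed sign, to 0.04, without Rragc+/+ replicate 1. Whether the spread within a genotype differs between genotypes was not tested for any gene.

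Cd44, the receptor for the matrix sugar hyaluronan, which can also carry E-selectin ligands, measured 1502, 808.6, 1236, 903.5 and 959.5 normalized counts in Rragc+/+ and 1364, 1327, 1170 and 1008 in RragcS74N/+. Again the mutant libraries lay inside the wild-type range, above the 3 lowest wild-type libraries. Means of 1082 ± 284 (SD, n = 5) and 1217 ± 163 (SD, n = 4) gave a log2 difference of 0.20 (95% interval -0.22 to 0.62; limma, adjusted p = 0.772), or a fold of 1.15 with an interval of 0.856 to 1.54. The log2 difference was 0.10 without Rragc+/+ replicate 2, its lowest library, and 0.32 without replicate 1, its highest.

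Pecam1, which binds its own kind at junctions between cells, was at the edge of detection with 5 to 17 reads a library. Rragc+/+ libraries gave 9.88, 8.18, 12.2, 8.84 and 5.01 normalized counts and RragcS74N/+ libraries 11.3, 13.2, 7.53 and 6.27. The ranges overlapped, and the CV of 29.7% and 33.7% was that of counting error, 31.9% and 30.1%. Its mean over all libraries, 9.15, was under the minimum of 10 for a test, so that no test is given. No endothelial marker of the list was listed beside it, as stated above.

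Some libraries stood high or low for several of the 9 genes at once. Rragc+/+ replicate 1 was the highest library for 6 of the 9 genes, RragcS74N/+ replicate 4 the lowest for 4 and Rragc+/+ replicate 5 the lowest for 3. The highest library exceeded the lowest 2.96-fold for Itgb2l, 2.64-fold for Pecam1, 2.26-fold for Itga4, 2.02-fold for Itgb1 and 1.86-fold for Cd44, and 1.46-fold for Itgam, the least of the 9. Pecam1 and Itgb1 are the genes with the fewest reads. For Itgb2l, Cd44, Selplg and Itga4 the highest and the lowest library were both wild-type. Rragc+/+ replicate 2 was 1.08 below the mean of 9 libraries for Itgb2l on the log2 scale, -0.47 from it for Cd44 and 0.69 from it for Itga4, so the library that stood apart as a whole carried the low end of Itgb2l and Cd44 and the high end of Itga4.

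**Figure D3:**
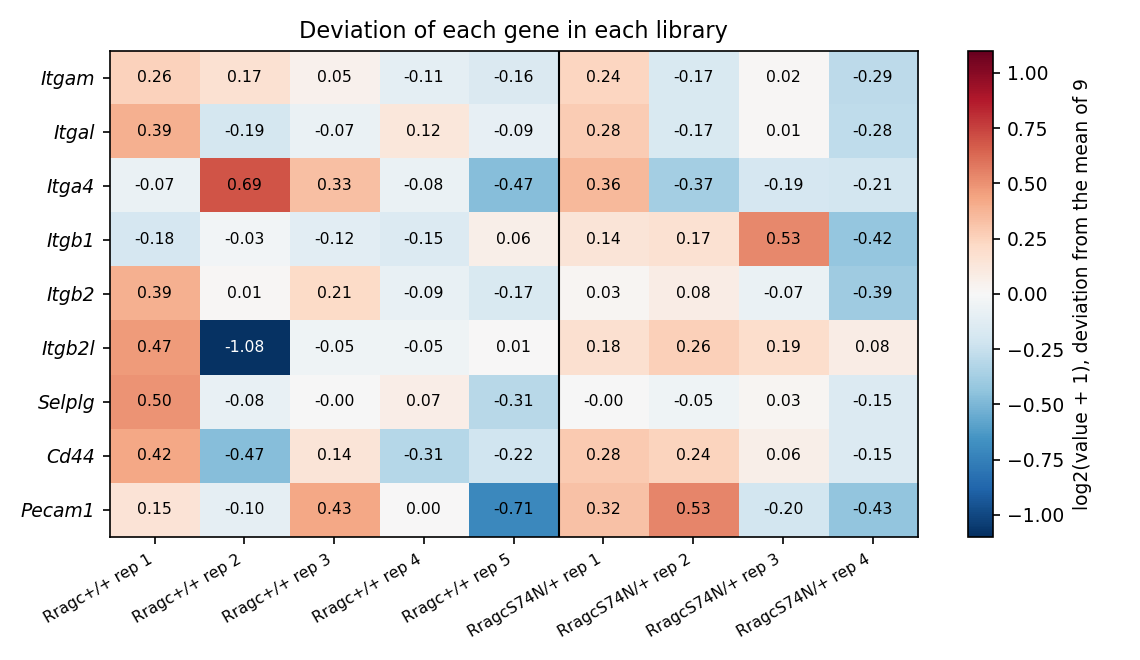
Deviation of each gene (rows) in each library (columns) from its mean over the 9 libraries, in log2(value + 1), printed in each cell and coloured red above and blue below the mean, with a line between the 5 Rragc+/+ and the 4 RragcS74N/+ libraries. Rragc+/+ replicate 1 is above the mean for 7 genes, RragcS74N/+ replicate 4 is below it for 8, and the cell farthest from 0 is Itgb2l in Rragc+/+ replicate 2 at -1.08.

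Partner subunits were compared next, since an alpha subunit needs its beta subunit. Itgam and Itgb2 went together across the 9 libraries with a Pearson r of 0.72 (exact permutation test, two-sided, p = 0.0239; adjusted over 21 relations, 0.472) and a Spearman rho of 0.67 (exact permutation test, p = 0.0589). After removal of the genotype means r was 0.70. It rested on the ends of the range, since r was 0.32 without Rragc+/+ replicate 1 and RragcS74N/+ replicate 4, the libraries farthest from the median of Itgb2. Itgal with Itgb2 gave an r of 0.60 (exact permutation test, p = 0.0856; adjusted 0.472) and a rho of 0.48 (exact permutation test, p = 0.194), and r was -0.16 without the same 2 libraries. Itga4 with Itgb1 gave an r of -0.11 (exact permutation test, p = 0.777; adjusted 0.858) and a rho of -0.13 (exact permutation test, p = 0.744), with the few reads of Itgb1 on one side. None of the 21 relations passed the adjusted threshold.

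Ratios within a library were taken as differences of log2(value + 1), which depend on the size factor only through the 1 added. Itgam to Itgb2 was close to even in both genotypes, at -0.06 ± 0.13 in Rragc+/+ (SD, n = 5) and 0.01 ± 0.20 in RragcS74N/+ (SD, n = 4). Itgal to Itgb2 was -1.11 ± 0.20 in Rragc+/+ and -1.02 ± 0.21 in RragcS74N/+. The ratio of Itgb2l to Itgb2 was -2.68 ± 0.52 against -2.21 ± 0.14, a difference of 0.48 that was 0.26 without Rragc+/+ replicate 2, and that of Itga4 to Itgb1 was 2.40 ± 0.47 against 2.03 ± 0.49. The genotypes overlapped in all 4 ratios, and no test was made of them.

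Among all 36 pairs of the 9 genes, r was above 0 for 31, with a median of 0.363, as a description over 9 libraries, in each of which all genes share a size factor. Itgb2l and Cd44 had the highest r, 0.779, which was 0.780 without Rragc+/+ replicate 2. Itga4 and Itgb2l had the lowest, -0.660, which was -0.108 without that library. Itgb2 went with Selplg at 0.750 and Itgam with Itgal at 0.691, or 0.887 without Rragc+/+ replicate 2. Without that library Itgam and Itgal were thus more alike than Itgb2l and Cd44, and the opposition of Itga4 and Itgb2l was hardly seen.

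**Figure D4:**
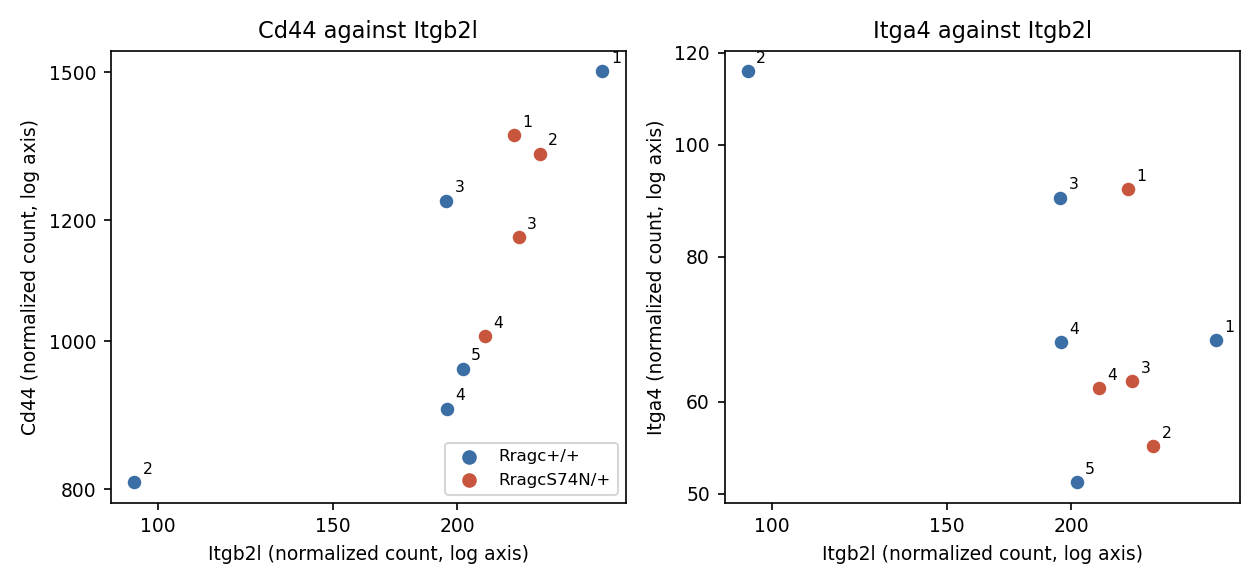
Cd44 against Itgb2l (left) and Itga4 against Itgb2l (right), in normalized counts on log axes, 1 point per library, with Rragc+/+ in blue, RragcS74N/+ in red and replicate numbers beside the points. Cd44 is higher where Itgb2l is higher (r = 0.779), and in the right panel Rragc+/+ replicate 2 stands alone at low Itgb2l and high Itga4 (r = -0.660, and -0.108 without it).

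Neutrophils lose and gain adhesion genes as they mature in the marrow, so each gene was set against a score of secondary granule genes, which are made at the intermediate stages, and one of mature neutrophil genes. Against the secondary granule score the r of all 9 genes was below 0, from -0.63 for Itgal to -0.15 for Itgb1, with exceptions when the processing changed. That of Itgb1 was 0.0750 with columns rescaled to the same total and 0.0918 without RragcS74N/+ replicate 4, and that of Itgb2l was 0.0433 without Rragc+/+ replicate 2. Leaving out the same library took Itga4 from -0.41 to -0.78. For Itgal r was -0.63 (exact permutation test, p = 0.0611; adjusted 0.472) and rho was -0.77 (exact permutation test, p = 0.0214; adjusted 0.258), and r was -0.43 without Rragc+/+ replicate 4 and RragcS74N/+ replicate 1, the libraries farthest from the median of the score, and -0.90 without Rragc+/+ replicate 1. Pecam1, on its few reads, gave an r of -0.56 (exact permutation test, p = 0.112; adjusted 0.472) and a rho of -0.72 (exact permutation test, p = 0.0369; adjusted 0.258), and its r was -0.82 without the same 2 libraries. Against the mature neutrophil score r ran from -0.56 for Itgb1 to 0.24 for Pecam1. These values depended on the scaling. With columns rescaled to the same total they ran from -0.15 for Itgb1 to 0.76 for Pecam1, and r was 0.45 for Itgam, 0.28 for Itgal and 0.11 for Itgb2l, against -0.16, -0.51 and -0.21 with the deposited scaling. The scores themselves overlapped between genotypes, in mean log2(value + 1) units. Secondary granule scores were 10.436 to 10.728 in Rragc+/+ and 10.170 to 10.747 in RragcS74N/+. Mature neutrophil scores were 10.369 to 10.612 in Rragc+/+ and 10.351 to 10.618 in RragcS74N/+. RragcS74N/+ replicate 4 was the highest library in both scores. Whether the scores vary apart from each other was not tested, so these r values do not place a gene at a stage.

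The genes around these receptors were described from 6 lists that hold 103 genes, of which 79 were listed and 77 tested. By limma 0 of the 77 had an adjusted p under 0.05, where 0% of all genes tested did. An unadjusted p under 0.05 was found for 1, where 5.81% of all genes tested had one. Differences were above 0 for 32 and below 0 for 45, with a median of -0.04. None of the 77 had genotypes that did not overlap, where 1.69% of all genes tested did. The 1 gene was Icam2, a ligand of LFA-1, whose mean was 14.6 ± 3.05 normalized counts in the 5 wild-type libraries and 8.84 ± 3.47 in the 4 mutant ones (SD), a log2 difference of -0.73 ± 0.33 (SE; limma, unadjusted p = 0.0435, adjusted p = 0.713) on 6 to 20 reads a library. Its difference was -0.43 without RragcS74N/+ replicate 1 and -0.90 without RragcS74N/+ replicate 2. The count of 1 was 10 without Rragc+/+ replicate 5, a fit in which 914 of the 6673 genes tested had an unadjusted p under 0.05. It was 0 without 1 of 5 other libraries (Rragc+/+ replicate 2, 3 or 4, RragcS74N/+ replicate 1 or 4). Without Rragc+/+ replicate 2 the number over all genes tested was 201.

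Of the other integrin subunits 5 of 13 were listed and 3 tested, and the one with the smallest p, Itgav, which pairs with several beta subunits, differed by -0.30 (limma, adjusted p = 0.764). The list of integrin activators and adaptors holds genes that link the integrin tail to actin or tune its activity, some of them downward. Of its 24 tested genes 8 had a difference above 0 and 16 below. The smallest p among them was that of the motor gene Myo1f at 1181 ± 277 against 872 ± 147 normalized counts (log2 difference -0.42; limma, adjusted p = 0.713). The kinases and signal adaptors below integrins and PSGL-1 showed 4 above 0 and 10 below, with the phospholipase gene Plcg2 at -0.32 (limma, adjusted p = 0.713). For the genes of selectin-ligand glycosylation, not all of them enzymes that build sugars, 8 differences were above 0 and 3 below, with a median of 0.16. Their smallest p was that of C1galt1, which extends O-linked sugars, at 0.49 (limma, adjusted p = 0.713). The differences farthest from 0 were those of Tln1 (talin) among the activators and adaptors, at -0.47, and among the glycosylation genes of St3gal4, a sialyltransferase gene, at 0.81. Both are named here after their values were seen (limma, adjusted p = 0.713 for both). Sheddases and membrane linkers, which cut receptors off the surface or tie them to actin, gave 3 above 0 and 4 below, with the protease gene Adam10 at 0.24 (limma, adjusted p = 0.741).

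**Figure D5:**
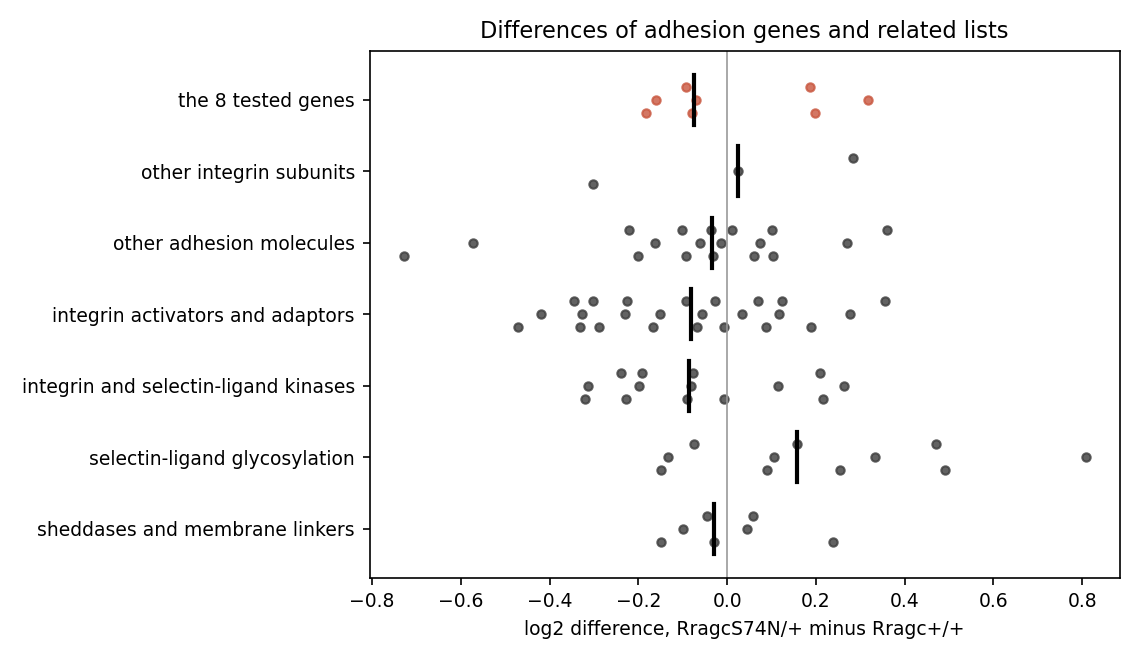
Log2 difference, RragcS74N/+ minus Rragc+/+ (horizontal axis), of each tested gene, 1 point per gene, for the 8 adhesion genes (red) and 6 related lists (grey), with a black line at each median; the vertical offsets only keep points apart. Medians run from -0.09 for the kinases to 0.16 for selectin-ligand glycosylation, and points lie on both sides of 0 in every list.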

How the data were processed

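The samples were 5 Rragc+/+ and 4 RragcS74N/+ libraries of sorted bone marrow neutrophils, grouped by GEO's labels, with replicate numbers in accession order. Per the study's methods, the 3′ ends of transcripts were sequenced after oligo-dT priming, with molecular identifiers added in the second strand, and reads were mapped by the authors to GRCm39 using TopHat2 (3 mismatches allowed) and counted per gene and strand with HTSeq (version 0.6.1) on GENCODE. The submitters' processing notes give TopHat2 2.0.10 and FastQC 0.11.7. The deposited values are a signal, gene read counts that the authors scaled by a size factor for each library, as in DESeq2. Collapse of reads on their molecular identifiers is not given in the sources used here, and neither is the filter behind the listed genes. Uncollapsed reads are not independent molecules, so counting errors given cover counting alone. All 9 columns were mapped to a sample, and 0 were left out. The study's text describes more RragcS74N/+ mice than the 4 libraries analysed here.

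Values were taken as log2(value + 1), which understates the change of low genes, and limma (version 3.58.1, R 4.3.3) was fitted to the 6673 genes whose mean reached 10, with trended empirical Bayes, genotype as the one term and Benjamini-Hochberg adjustment at 0.05. Alternatives were pseudocounts of 0.5 and 5, no filter or a minimum mean of 50, 2 other scalings, untrended moderation, array weights, edgeR (version 4.0.16) and DESeq2 (version 1.42.0) on the recovered reads, and leaving out each library. The procedure was tested on simulated data in which the changes were larger than those of any tested adhesion gene here. That test does not show how it performs at differences of their size. Duplicate libraries were looked for in the 16 pairs within a genotype, and none was found (lowest chi-square per degree of freedom 5.70). Relations used exact permutation tests over all pairings.

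The 9 genes and the lists were chosen with earlier results of these data known. Named genes were the 9, Rragc, Ptprc and Ly6g, the gene with the smallest p of each related list and any of its genes whose genotypes did not overlap, and for each of the 8 tested genes the 2 genes of the highest r among those with a mean of 50 or more. Scores were the mean log2(value + 1) over the 10 secondary granule and 13 mature neutrophil genes. Correlations between pairs of genes without Rragc+/+ replicate 2 were added after the data were seen. Overlapping genes were looked up in GENCODE for GRCm38, not the authors' build: Itgam shares its locus with Gm49368 on the same strand, which is not listed, so their reads could be divided in another way, and the opposite-strand neighbours of Itga4, Itgb2l and Cd44 are not listed either.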

Additional observations from a re-analysis of the deposited data

How the results depend on the processing

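Of 782 values that 50 results took under the alternatives, 733 kept their direction and their side of the threshold or moved by less than the spread between replicates, 27 changed sign and 22 moved, and none crossed a threshold; the cause was not tested. With 1 library left out, the log2 differences ran from -0.19 to -0.01 for Itgam, -0.18 to 0.0195 for Itgal (0.0094 without RragcS74N/+ replicate 4), -0.34 to -0.03 for Itga4, 0.05 to 0.36 for Itgb1, -0.22 to -0.06 for Itgb2, 0.08 to 0.47 for Itgb2l, -0.16 to 0.0373 for Selplg, 0.10 to 0.32 for Cd44, -0.155 to 0.0011 for Rragc and -0.15 to 0.18 for Ly6g. The 388 genes with an unadjusted p under 0.05 ran from 201 to 914, and were 191 with a mean of at least 50 and 769 with array weights. Of the related lists, 0 to 10 had an unadjusted p under 0.05 with a library left out, 0 with a mean of at least 50, 2 with TMM scaling or DESeq2, 3 with edgeR and 4 with array weights. Of the 9 adhesion genes, 0 to 1 had genotypes that did not overlap with a library left out.

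When every column was rescaled to one total, r became 0.12 for Itga4 and Itgb1, 0.0750 for Itgb1 and the secondary granule score, and 0.45, 0.28 and 0.11 for Itgam, Itgal and Itgb2l with the mature neutrophil score; with TMM it was -0.0238 for Selplg. Leaving out a library gave -0.29 to 0.0350 for Itga4 and Itgb1, -0.38 to 0.0918 and -0.24 to 0.0433 for Itgb1 and Itgb2l with the secondary granule score, and, with the mature neutrophil score, -0.28 to 0.0831 for Itgam, -0.0259 to 0.37 for Itga4, -0.31 to 0.12 for Itgb2l, -0.20 to 0.14 for Selplg and -0.13 to 0.26 for Cd44. No paired analysis was possible because replicate numbers are not part of the labels. Depth limits Itgb1 and Pecam1 most.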

Other observations

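The genes whose levels ran most like those of each adhesion gene, among candidates with a mean of 50 or more (3474, or 3475 for Itgb1), are given by their Pearson r over the 9 libraries, in each of which all genes share a size factor. Itga4 was closest to Tap1, a subunit of the peptide transporter for antigen presentation, at 0.977 and to Ppt1, a lysosomal thioesterase, at 0.976, which were 0.960 and 0.956 without Rragc+/+ replicate 2. Tap1 itself spanned 115.9 to 292.1 normalized counts. Itgb2l was closest to Tcp11l2 at 0.982 and Dhrs7 at 0.976, which were 0.868 and 0.874 without that library. Cd44 was closest to Ctse, a cathepsin, at 0.952 and Tmbim6 at 0.922.

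For the beta2 integrins, Itgam went with Osbpl2 at 0.935 and the growth factor receptor gene Igf1r at 0.924, Itgal with Phf21a at 0.918 and Ccdc71l at 0.905, and Itgb2 with Tram1 at 0.908 and Nfkbia, the inhibitor of NF-kB, at 0.905. Selplg went with Actn1, an actin crosslinker, at 0.934 and Sft2d2 at 0.916. Itgb1, with few reads, reached 0.766 with Cyfip1 and 0.731 with Arid5b, the lowest of the 8. None of these genes is another adhesion gene of the 9. Each was picked for its high r among all candidates, so the size of r is no test of a relation.

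Ptprc, which encodes the CD45 of the sort, averaged 1636 ± 263 normalized counts over the 5 wild-type and 1459 ± 230 over the 4 mutant libraries (SD), and Ly6g 2639 ± 396 and 2798 ± 891, with log2 differences of -0.16 and 0.05 (limma, adjusted p = 0.781 and 0.950). In 48 groups of per-library values examined for a sample far from its group, 0 had one by Dixon's criterion, where chance gives 2.4.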
